A study of Rattus norvegicus with 6 samples.

Results

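The probes of 10 tissue-restricted miRNAs were followed here in rat kidney, those for rno-miR-122, rno-miR-1, rno-miR-133a, rno-miR-133b, rno-miR-206, rno-miR-208, rno-miR-124, rno-miR-9, rno-miR-128 and rno-miR-375, which are best known from liver, muscle, brain and pancreas. They were chosen by the rat name in the scanner files, with names that end in an asterisk left out, and all 10 of the 10 names had 1 probe each, out of 679 rat-named probes and 5560 miRNA probes in all. The chip was a custom vertebrate miRNA array read in 1 colour, so a further 46 probes of the same families carried no rat name and were described beside the members. Kidney RNA came from 6 male Big Blue rats, a transgenic line on the Fisher 344 background, with 1 animal on each array. The control group was replicates 13, 14 and 15, which were untreated. The AA group was replicates 19, 20 and 21, which received the sodium salt of aristolochic acid, a carcinogen of Aristolochia plants that binds DNA and injures the kidney tubule. The dose was 10.0 mg/kg in 4 ml/kg by gavage, given 5 times a week over 12 weeks, with the kidneys taken 1 day after the last dose. All 6 animals carried the Big Blue transgene and are labelled as 6 weeks old, the age at which dosing began. By the study's methods, RNA came from a piece cut from the kidney, and the part of the kidney is not named. Cell types were not separated, so fewer cells of a type and less RNA per cell cannot be told apart in any value below.

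A miRNA is a short RNA that guides a silencing complex to messenger RNAs, mainly through its seed, bases 2 to 8 from the 5′ end. miR-122 is the dominant miRNA of hepatocytes, where it acts in lipid metabolism. miR-1, miR-133a, miR-133b and miR-206 are the myomiRs of striated muscle, and miR-208 is made from an intron of a heart myosin gene. miR-124 and miR-9 act in neurons and their progenitors, and miR-128 is enriched in brain. miR-375 is abundant in pancreatic islets and some other endocrine and epithelial cells.

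The sequences that the results turn on are given with the seed in capitals, first those of the members at 32 or above on at least 1 array and then miR-1, which shares a seed with miR-206, and the miR-133 pair, whose miR-133b gene lies beside that of miR-206. They were read from the scanner files, and the rat entries matched mature miRNAs in RefSeq (GRCr8).
rno-miR-122: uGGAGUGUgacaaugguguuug
rno-miR-206: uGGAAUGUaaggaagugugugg
rno-miR-128: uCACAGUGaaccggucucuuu
rno-miR-375: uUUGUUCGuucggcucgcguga
rno-miR-1: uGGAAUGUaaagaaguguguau
rno-miR-133a: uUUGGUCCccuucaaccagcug
rno-miR-133b: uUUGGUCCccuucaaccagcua
miR-1 and miR-206 share the seed GGAAUGU and differ by A11G, A21G and U22G, with positions counted from 1 at the 5′ end and the base of miR-1 first. miR-133a and miR-133b share the seed UUGGUCC and differ by G22A, with the base of miR-133a first. In RefSeq GRCr8, Mir206 and Mir133b were next to each other inside LOC120094648, Mir1 and Mir133a1 lay inside Mib1, and Mir208a lay inside Myh6, a heart myosin heavy chain gene.

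One array stood apart. The mean scanner signal over the miRNA probes was 149 on AA replicate 20, against 263 to 484 on the other 5. Of the 18 probes of a list of miRNAs known from kidney epithelium, 13 were at a deposited value of 32 or above on all 6 arrays and 4 were below it on all 6 (miR-215, miR-204, miR-141 and miR-30b-3p). Many of these miRNAs are also made in other epithelia, so their presence does not by itself settle the tissue of an array. Their summed deposited value was 12902.7 on AA replicate 20 and 22317.5 to 27965.0 on the others. Among them, miR-30b-5p was 1064.9 on that array and 4361.1 to 5576.4 on the others, whereas miR-192 was 1295.3, within the 1189.4 to 1585.5 of the others. Results that rest on AA replicate 20 are given with and without it.

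Detection was read on each array from the deposited normalized intensity, for which the study's methods used a limit of 32, and from the scanner signal, called well above background where the mean of a probe's 2 spots exceeded the median of the array's 2814 empty spots by more than 3 robust SD. Of the 10 members, 1 was at 32 or above on all 6 arrays (miR-206), 6 were below 32 on all 6 (miR-1, miR-133a, miR-133b, miR-208, miR-124 and miR-9), and 3 were at 32 or above on some arrays only (miR-122, miR-128 and miR-375). Over all rat-named probes, 101 of 679 (14.9%) were at 32 or above on every array and 73.5% on none. Thus 1 of 10 members on every array lay near the share for all rat-named probes, and no test was made of the difference.

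**Figure D1:**
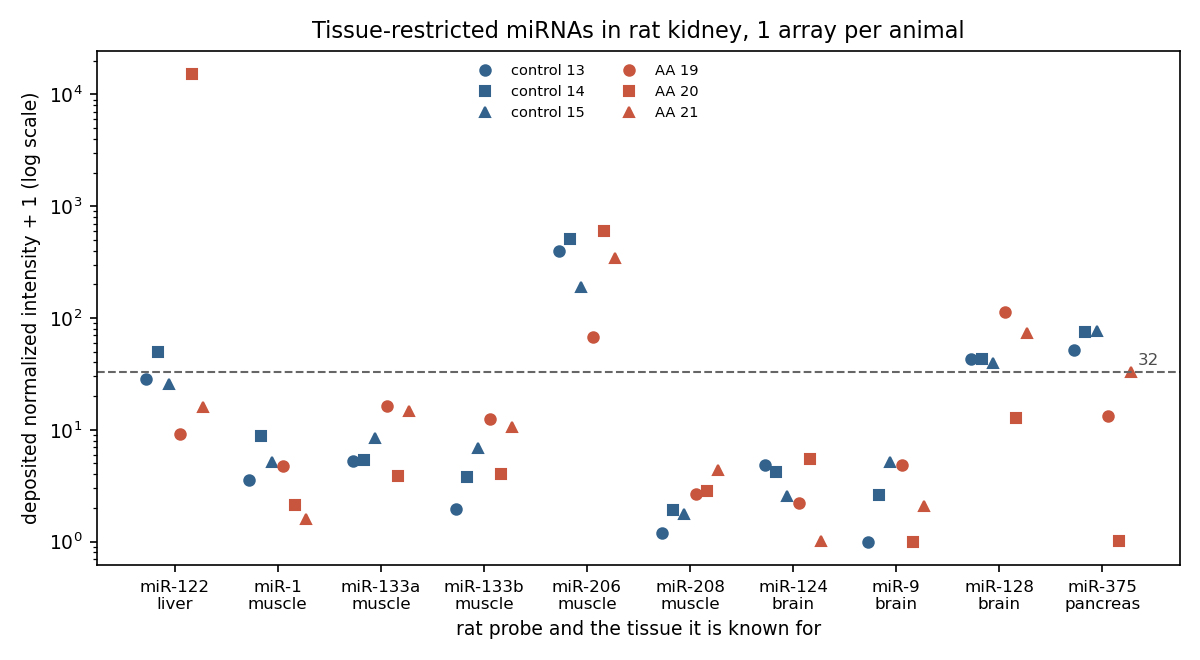
Deposited normalized intensity plus 1, on a log axis, of the 10 member probes on the 3 control (blue) and 3 AA (red) arrays, 1 point per array, with the limit of 32 as a dashed line. miR-206 lies above the line on all 6 arrays, 6 members lie below it on all 6, and miR-122 reaches 15191.2 on AA replicate 20 alone.

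miR-122, the liver miRNA, was low on 5 arrays and very high on 1. The controls, in the order 13, 14 and 15, had deposited values of 27.3, 48.5 and 24.6. The AA animals, in the order 19, 20 and 21, had 8.17, 15191.2 and 14.9, and the same order is used for all members below. The value on AA replicate 20 was 313.1 times the highest of the other 5 arrays. On the scanner signal minus the empty-spot median, before any normalization, it ranged from 28.5 to 88.8 in the controls and was 19.4, 2026.3 and 18.9 in the AA animals. AA replicate 20 was then 22.8 times the next array, so the same array was on top on both scales, by a smaller factor on the unnormalized one. Both spots of the probe, in separate blocks of the chip, were high there, at 1886.3 and 2166.4. By the scanner signal the probe was well above background on all 6 arrays, although 4 of them were below 32.

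Further miR-122 probes gave the same pattern. The pig and opossum probes hold the whole rat sequence with extra bases at the 3′ end, so they report on overlapping RNA and are not independent of it.
ssc-miR-122: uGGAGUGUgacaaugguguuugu
mdo-miR-122: uGGAGUGUgacaaugguguuugugu
On AA replicate 20 the deposited values were 14646.3 for ssc-miR-122 and 13500.2 for mdo-miR-122, whereas on the other 5 arrays they reached at most 69.2 and 52.0. The probe for the passenger strand, rno-miR-122*, was not well above background on any array and read 8.31 on AA replicate 20. The chicken probe gga-miR-122b, which has another seed, was at most 3.73. Only 5 of the 5559 probes in the deposited table (0.0899%) were at 32 or above on AA replicate 20 and more than 10 times as high as on every other array. These were the 3 miR-122 probes, hsa-miR-5096 and bta-miR-2373, and the last 2 were named after their values were seen. No other rat-named probe was among them. miR-148a, the other liver miRNA listed, had no probe with that rat name and so gave no value. Whether liver RNA was mixed into the sample of AA replicate 20 was not tested.

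**Figure D2:**
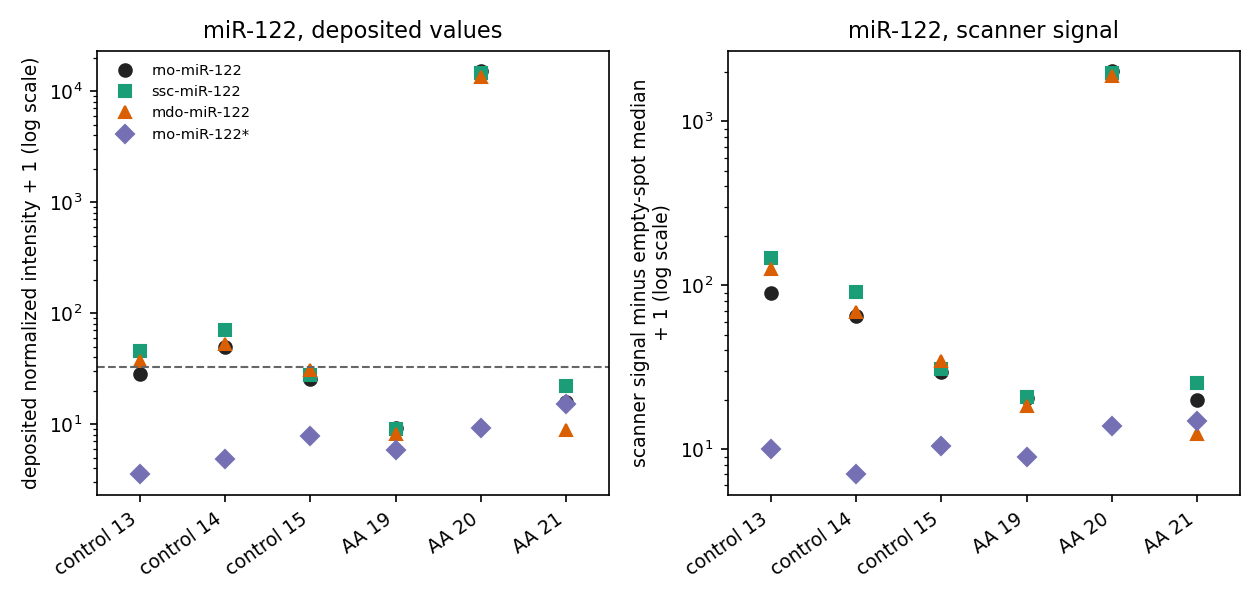
Signal plus 1, on log axes, of 3 miR-122 probes and the passenger strand rno-miR-122* on each array: deposited normalized intensity on the left with the limit of 32 dashed, and scanner signal minus the empty-spot median on the right. The 3 guide-strand probes rise on AA replicate 20 in both panels, and the passenger strand reads 8.31 there in the deposited values.

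In the muscle group, miR-206 was the member seen throughout. Its deposited value was 392.4, 511.0 and 188.4 in the controls and 66.1, 599.0 and 344.0 in the AA animals. The groups overlapped, and the lowest array and the highest array were both AA animals. On the scanner signal minus the empty-spot median it was 1037.6, 617.7 and 154.3 in the controls and 199.2, 98.0 and 315.3 in the AA animals, so AA replicate 20 was the lowest there and the highest after normalization. The probe was well above background on all 6 arrays.

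The other striated-muscle members stayed below 32 on every array. miR-1 was at most 7.79 and miR-208 at most 3.33 in the deposited values, and neither was well above background on any array. miR-133a ranged from 2.88 to 15.2 and miR-133b from 0.97 to 11.5, with AA replicate 19 the highest for both and the only array well above background for either. miR-499 and miR-208b, further heart and muscle miRNAs, were below 32 on every array with all 3 of their probes. By the scanner signal, miR-499 was well above background on 2 arrays, control replicate 13 and AA replicate 19, and miR-208b on none.

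miR-206 was thus at 32 or above where miR-1, which shares its seed, and the guide strand of miR-133b, its neighbour in the genome, were not. The passenger strand of miR-133b, given below, was at 32 or above on all 6 arrays. Probes for close relatives were compared to see which of them gave signal.
mdo-miR-206: uGGAAUGUaaggaagugugug
ssc-miR-206: uGGAAUGUaaggaaguguguga
oan-miR-1b: uGGAAUGUuaagaagugugugu
hsa-miR-1: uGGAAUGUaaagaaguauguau
The opossum probe mdo-miR-206, which lacks the last base, was at 32 or above on all 6 arrays, from 38.9 to 185.1. The pig probe ssc-miR-206, which differs from the rat sequence by G22A, ranged from 13.3 to 36.9 and was at 32 or above on 2 arrays. The platypus probe oan-miR-1b, which differs from rno-miR-1 by A9U and A21G, was at 283.8, 302.9 and 99.6 in the controls and 296.9, 2163.0 and 138.6 in the AA animals. On the scanner signal minus the empty-spot median, oan-miR-1b was at 280.2 on AA replicate 20 and at 1020.4 on AA replicate 19, so the array that was highest after normalization was not the highest before it. hsa-miR-1, the sequence RefSeq lists in the rat as rno-miR-1b, was at most 9.11. Of the 11 miR-1 family probes without a rat name, oan-miR-1b was the only one at 32 or above on any array.

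The 4 probes of these families whose target holds GUGUGUG were rno-miR-206, mdo-miR-206, ssc-miR-206 and oan-miR-1b, and all 4 were well above background on all 6 arrays. This stretch was chosen after the values were seen, and it was searched on the miRNA strand only. It occurs in 1.01% of all targets on the chip. Of the 56 targets that hold it, 25 (44.6%) were at 32 or above on every array, against 541 of the 5503 that lack it (9.83%). The 56 include the 4 probes that the stretch was taken from, and the 25 include rno-miR-206, mdo-miR-206 and oan-miR-1b. The contrast is therefore not separate from the choice of the stretch. These targets share sequence, so they are not independent, and the part of this stretch in the signal of miR-206 was not tested.

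**Figure D3:**
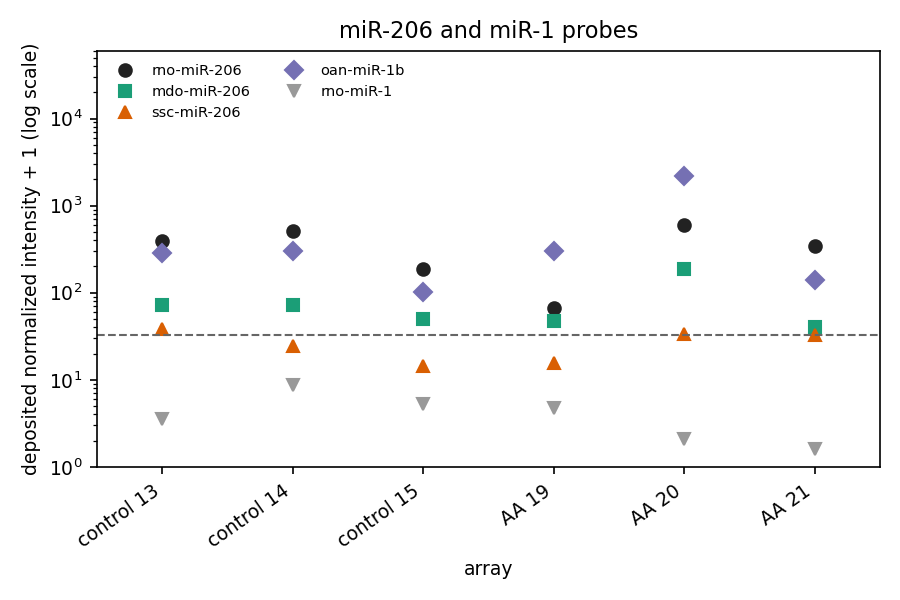
Deposited normalized intensity plus 1, on a log axis, of 3 miR-206 probes, oan-miR-1b and rno-miR-1 on each array, with the limit of 32 dashed. rno-miR-206, mdo-miR-206 and oan-miR-1b lie above the line on all 6 arrays, and rno-miR-1 stays at or below 7.79.

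The passenger strand of miR-133b behaved unlike its guide. The other strands of the members' hairpins were on 11 probes, and 10 of them were below 32 on all 6 arrays. The exception, chosen after its values were seen, was this one.
rno-miR-133b*: gcuggucaaacggaaccaagu
Its deposited values were 92.0, 84.2 and 250.7 in the controls and 50.4, 2221.5 and 224.3 in the AA animals. On the scanner signal minus the empty-spot median, AA replicate 20 was at 316.2 and the others at 105.9 to 262.5, a ratio to the next array of 1.2 there and 8.9 in the deposited values.

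Among the brain miRNAs, miR-128 was the one with signal. Its deposited value was 41.9, 42.4 and 38.8 in the controls and 111.8, 11.7 and 72.5 in the AA animals. AA replicates 19 and 21 lay above every control, and AA replicate 20 lay below every control and was not well above background. The probes pma-miR-128 and ppa-miR-128, which hold the rat sequence with an extra base at the 3′ end, were at most 18.1 and 15.8. Both maxima were on AA replicate 19. AA replicate 21 read 3.32 and 1.57, below every control on each probe, unlike on the rat probe. These 2 probes were well above background on 1 and 2 arrays. miR-124 was at most 4.45 and miR-9 at most 4.18, and neither was well above background on any array.

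A list of further brain miRNAs gave 11 probes, 10 of them below 32 on all 6 arrays. The remaining one, miR-132, is induced by neuronal activity and is also made outside the brain. It was at 7.20, 9.16 and 10.0 in the controls and 81.5, 15.7 and 39.9 in the AA animals. Each AA animal was thus above each control in the deposited values, although miR-132 was well above background on 3 arrays only. The share of all probes with such a separation in the deposited values was not counted. In the log2 signals of the test below, its groups overlapped over all 6 arrays.

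miR-375 was present in the controls and lower in the AA animals. Its deposited value was 50.6, 73.8 and 74.8 in the controls and 12.2, 0.01 and 32.2 in the AA animals. Every control was above every AA animal, but how many of all probes separate so in the deposited values was not counted. On the scanner signal minus the empty-spot median it was 130.4, 67.4 and 43.9 in the controls and 19.3, 0.8 and 21.7 in the AA animals, and AA replicate 20 was the only array not well above background. Other miRNAs known from the pancreas, miR-216a, miR-216b, miR-217 and miR-7, had 6 probes, and all 6 were below 32 on every array.

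Relatives of miR-375 on the chip differ from it at an end, and the comparison was repeated on them because their targets overlap its own.
mdo-miR-375: uUUUGUUCguucggcucgcguga
pma-miR-375b: uUUGUUCGuucggcucgcguug
dre-miR-375: uUUGUUCGuucggcucgcguua
mdo-miR-375 has an extra U at the 5′ end, pma-miR-375b differs from the rat sequence by G21U and A22G, and dre-miR-375 by G21U. mdo-miR-375 was at 114.3, 115.7 and 193.0 in the controls and 40.0, 8.53 and 55.0 in the AA animals. pma-miR-375b was at 150.7, 142.7 and 301.3 in the controls and 38.2, 2.82 and 54.9 in the AA animals. dre-miR-375 was at 28.8, 37.9 and 35.2 in the controls and 6.11, 8.60 and 5.40 in the AA animals. With each of the 3 probes, every control was above every AA animal, again without a count over all probes on this scale. The passenger strand rno-miR-375* was at most 6.00.

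**Figure D4:**
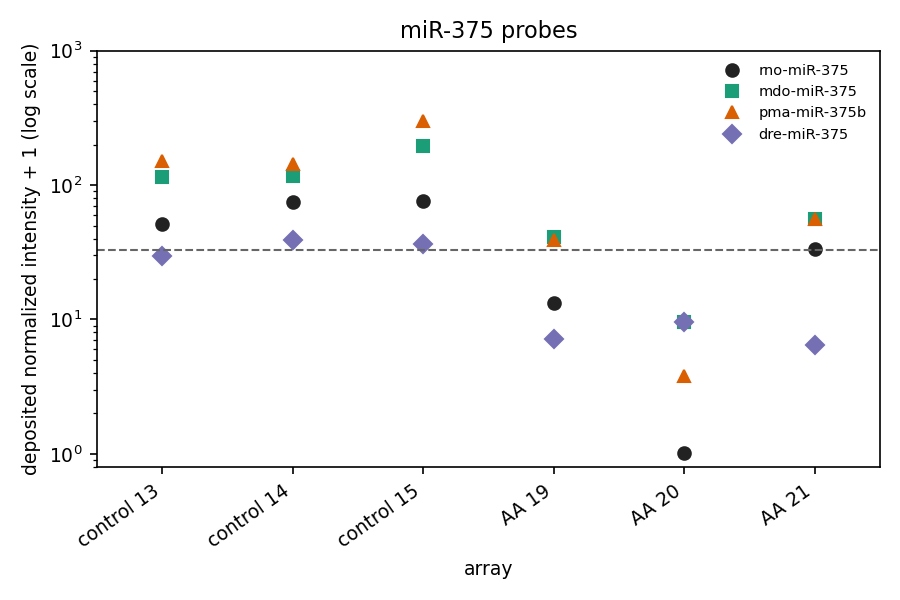
Deposited normalized intensity plus 1, on a log axis, of rno-miR-375 and 3 related probes on each array, with the limit of 32 dashed. For each probe, all 3 control arrays lie above all 3 AA arrays, and for 3 of the 4 probes AA replicate 20 is the lowest.

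AA was compared with control by limma on log2 signals, over the 1132 probes at 32 or above on at least 1 array, with Benjamini-Hochberg adjustment over all of them. Of the members, 4 entered the test: miR-122, miR-206, miR-128 and miR-375. They passed because at least 1 array was high, and the other 6 were below 32 on every array. None of the 4 passed an adjusted p of 0.05, against 2 of all 1132 probes (0.177%). At an unadjusted p under 0.05, 1 of the 4 passed, miR-375, against 4.95% of all probes and 3.80% with AA lower. With no filter, the log2 differences of the other 6 ran from -0.048 for miR-1 and miR-9 to 0.14 for miR-133b, and the lowest limma adjusted p among them was 0.547, for miR-208.

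miR-375 fell short of the adjusted threshold. Its log2 signal was 6.93 ± 0.09 (SD, n = 3) in control and 6.28 ± 0.33 (SD, n = 3) in AA. The log2 difference was -0.64 (SE 0.27), with an unadjusted p in limma of 0.049 and an adjusted p of 0.885. The groups did not overlap, as for 5.57% of all tested probes with AA lower, and an exact two-sided permutation test gave p = 0.10, the smallest that 3 against 3 arrays allow. Without AA replicate 20 the difference was -0.54 (SE 0.22, limma adjusted p = 0.592). miR-375 then kept an unadjusted p under 0.05 in limma, as did 2.83% of all tested probes with AA lower. Its unadjusted p in limma was not under 0.05 without control replicate 13, 14 or 15, or without AA replicate 19. Nor was it without normalization, or with probes required to reach 32 on at least 3 arrays.

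The related probes gave log2 differences of -1.41 (SE 0.34) for pma-miR-375b, -1.08 (SE 0.32) for mdo-miR-375 and -0.47 (SE 0.23) for dre-miR-375. Their unadjusted p in limma was 0.00436, 0.011 and 0.0775, and the adjusted p was 0.832, 0.832 and 0.885. Without AA replicate 20 the differences were -1.33, -0.97 and -0.53, with adjusted p of 0.322, 0.412 and 0.586 in limma. None passed the adjusted threshold, and the 4 probes read overlapping RNA from the same 6 animals. Only control arrays brought dre-miR-375 into the test, so its lower AA signal is not independent of the filter.

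miR-122 differed by 1.79 on the log2 scale (SE 1.58, limma adjusted p = 0.885), with a log2 signal of 6.74 ± 0.23 (SD, n = 3) in control and 8.52 ± 3.64 (SD, n = 3) in AA. This positive difference rested on AA replicate 20. Without it the log2 difference turned to -0.37 (SE 0.25, limma adjusted p = 0.733), and both remaining AA animals were below all 3 controls, as for 8.75% of all tested probes. mdo-miR-122 then differed by -0.65 (SE 0.23, limma adjusted p = 0.49) and ssc-miR-122 by -0.52 (SE 0.29, limma adjusted p = 0.663).

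miR-128 differed by 0.25 on the log2 scale (SE 0.36, limma adjusted p = 0.885), with a log2 signal of 6.73 ± 0.10 (SD, n = 3) in control and 6.98 ± 0.63 (SD, n = 3) in AA. Without AA replicate 20 it was 0.71 higher in AA (SE 0.23, limma adjusted p = 0.443), and both remaining AA animals were above all controls. Without that array, 17.8% of all tested probes had groups that did not overlap with AA higher, and 5.21% had an unadjusted p under 0.05 with AA higher, as miR-128 did (0.0194 in limma). Without AA replicate 19, by contrast, the log2 difference of miR-128 was -0.00038 (SE 0.32, limma adjusted p = 0.999).

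miR-206 differed by -0.31 on the log2 scale (SE 0.54, limma adjusted p = 0.91), with a log2 signal of 8.78 ± 0.54 (SD, n = 3) in control and 8.48 ± 1.01 (SD, n = 3) in AA. Without AA replicate 20 it was -0.77 (SE 0.57, limma adjusted p = 0.747), and without AA replicate 19 it was 0.25 (SE 0.37, limma adjusted p = 0.785). The groups overlapped over all 6 arrays and without AA replicate 20.

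**Figure D5:**
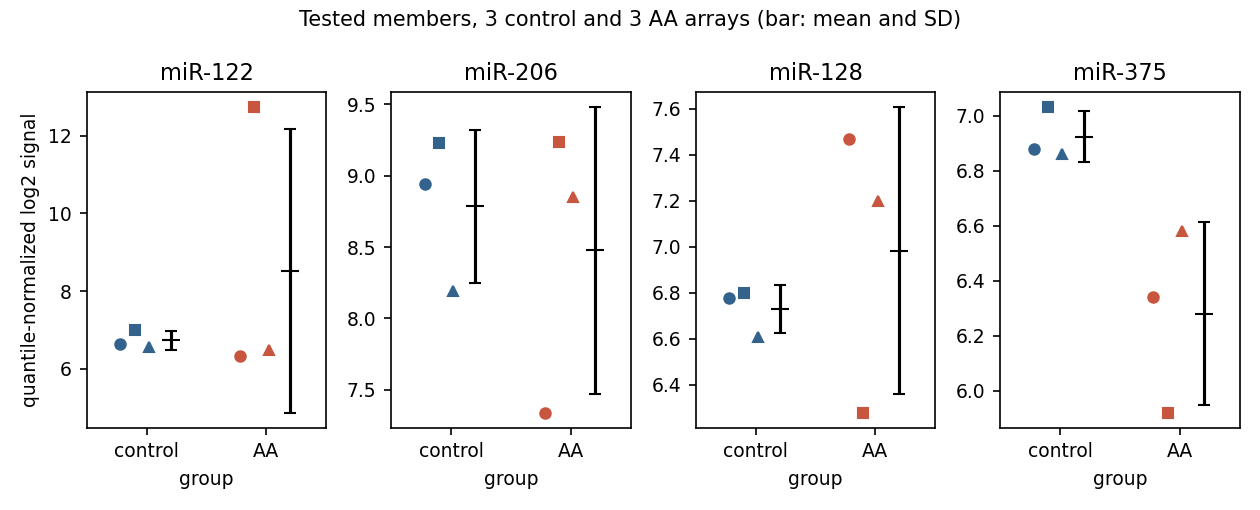
Quantile-normalized log2 signal of the 4 tested members in 3 control (blue) and 3 AA (red) arrays, with each group's mean and SD as a black bar. Each panel has its own axis, the circle, square and triangle are replicates 13, 14 and 15 or 19, 20 and 21, and miR-375 is the one whose groups do not overlap.

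In the same fit, miR-132 differed by 0.53 on the log2 scale (SE 0.31, limma adjusted p = 0.885), and by 0.90 (SE 0.24, limma adjusted p = 0.347) without AA replicate 20. It had entered the test through AA arrays only, so its higher AA signal is not independent of the filter. rno-miR-133b* differed by 0.99 (SE 0.84, limma adjusted p = 0.885) with that array and by 0.034 (SE 0.56, limma adjusted p = 0.978) without it. oan-miR-1b differed by 0.88 (SE 0.68, limma adjusted p = 0.885) with it and by 0.15 (SE 0.50, limma adjusted p = 0.913) without it. Of the 14 tested probes of the kidney epithelium list, 0 passed the adjusted threshold, 1 had an unadjusted p under 0.05, miR-194 (log2 difference -0.82, SE 0.34, and -0.53 without AA replicate 20), and the median log2 difference was -0.23, against -0.05 over all tested probes. Without AA replicate 20 the sign of the list's median turned, to 0.27, against -0.0041 over all tested probes. Then 12 of the 14 were higher in AA, against 561 of all 1132 tested probes. In limma, 0 of the 14 had an adjusted or an unadjusted p under 0.05, against 3 and 91 of all 1132. The list holds probes of the same families, so they are not independent.

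Other cells of the kidney sample were read from their known miRNAs. The smooth muscle miRNAs miR-143 and miR-145 were at 32 or above on all 6 arrays. Their summed deposited value was 1181.1 to 2227.5 in control and 1361.1 to 2265.3 in AA. Of the striated-muscle members, miR-1, miR-133a, miR-133b and miR-208 were below 32 on every array, whereas miR-206 was at 32 or above on all 6. The endothelial miR-126 was at 1209.8 to 1437.2 in control and 602.5 to 1645.8 in AA. The red cell miRNA miR-451 was at 66.3, 48.4 and 50.4 in the controls and 75.7, 8.36 and 16.3 in the AA animals, and miR-144, from the same transcript, was at most 4.48. Of the 4 leukocyte probes, 1 was at 32 or above on all arrays, miR-150, at 312.5 to 510.9 in control and 496.1 to 562.1 in AA, and miR-142 and miR-223 were below 32 throughout. The part of these cells in the differences above was not tested.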

How the data were processed

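Kidney RNA of 3 control and 3 AA rats was measured on 6 one-colour arrays. Groups and replicate numbers came from the sample labels, which name no batch, slide or scan, so no such block was fitted. By the study's methods, RNA was poly(A)-tailed, tagged, stained with Cy3, read by a laser scanner and digitized with Array-Pro. The scanner files that the authors deposited give, for each of 15066 spots, the median intensity over its pixels, neither background-corrected nor normalized. The second table the authors deposited holds normalized intensity on a linear scale for 5559 probes, made by background subtraction and LOWESS, a local regression. How spots were combined there and what each array was fitted to are not given in the sources used here.

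From the scanner files, normexp background correction (offset 50) over all spots, log2, quantile normalization and averaging of a probe's spots were run in limma 3.58.1 (R 4.3.3). Probes at a deposited value of 32 or above on at least 1 array were tested with lmFit and eBayes, adjusted by Benjamini-Hochberg, with a threshold of 0.05. The offset compresses differences of dim probes. Files were read with Python 3.11.15. The statistics were checked on simulated data.

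The members and lists were chosen with earlier results of these data known. All members were named. Probes of the same families without a rat name were named where they and the rat probe differed in being at 32 or above on all 6 arrays, where they were closest to a member in sequence, or where a result turned on them. Replicates are single animals, and 3 per group limit the precision. RefSeq (GRCr8) gave miRNA names and neighbours, without coordinates.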

Additional observations from a re-analysis of the deposited data

How the results depend on the processing

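No paired analysis was possible because the groups share no replicate numbers. None of the 4 tested members passed the adjusted threshold under any alternative. miR-375 stayed lower in AA under all 17 alternatives, from -2.27 to -0.47 on the log2 scale, with adjusted p of 0.176 to 0.994. miR-122 turned to -0.11 with array quality weights and ranged from -0.37 to 2.84 over single arrays left out, the lowest without AA replicate 20. Leaving out AA replicate 19 turned miR-206 to 0.25 and miR-128 to -0.00038, and over single arrays left out they ranged from -0.77 to 0.25 and from -0.00038 to 0.71. The count of members on every array rose from 1 to 2 with the limit of 3 robust SD (miR-122 added) and ranged from 1 to 2 over single arrays left out, 2 without AA replicate 20 (miR-128 added). The count on no array went from 6 to 4 with the limit of 3 robust SD and was 6 otherwise. Over all tested probes, the 2 calls became 0 with cyclic loess, 0 with median scaling, 0 without normalization and 44 with array quality weights, and ranged from 0 to 3 over single arrays left out, with 3 without AA replicate 20 and 0 without any other. The cause was not tested. Probes with an unadjusted p under 0.05 numbered 70, 6, 5 and 243 in those 4 settings. The median log2 difference of all probes was -0.05, and it was -0.26 with median scaling, -0.32 without normalization and -0.16 with subtraction. A fit blocked on slide was not run, since none is named. Signals near the empty spots carry no order.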
